A study of Mus musculus with 20 samples.

Results

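Mouse blastocysts that had received the let-7f mimic at a doubled concentration were compared with blastocysts that had received it at the single concentration, to ask whether the higher dose added anything to the transcriptome. The comparison rests on 13 of the 20 libraries of the series, 5 from pools given the doubled concentration (labelled 2x Str let-7f) and 8 from pools given the single one (labelled Str let-7f). Membership followed the sample titles alone. The other 7 libraries, from vehicle pools, entered the estimate of spread and gave the size of the response to the mimic.

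All zygotes were wild type and of the strain labelled F1 C57BL/6Jx129S1/SvlmJ. They were injected with nuclease-free water (vehicle) or with the mimic dissolved in that water, were grown in KSOM medium to the blastocyst, and were pooled in groups of 10 embryos for ribosome-depleted total RNA sequencing. Per the labels, the single concentration approximates the raised level seen in sperm of stressed males and the doubled one lies above the physiological range. No group received an unrelated mimic, no library batch or injection day is labelled, and each library mixes the 3 blastocyst lineages, so fewer cells of a type and less RNA per cell cannot be told apart.

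Depth ran from 1.94 to 27.2 M reads (median 5.04) in 2x Str let-7f, from 1.54 to 58.8 M (median 12.4) in Str let-7f and from 3.30 to 46.6 M (median 10.5) in vehicle. The mean log2 depth of both mimic groups differed by -0.44 (exact permutation p = 0.636, two-sided). The libraries under 2 M reads were 2x Str let-7f replicate 4 and Str let-7f replicate 9. All 13 markers of trophectoderm, epiblast and primitive endoderm had reads in all 20 libraries, among them Cdx2, Nanog and Gata6. Whether pools shared mothers or injection days is not labelled, and p-values therefore cover the spread among these pools, which may be technical.

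The let-7 microRNAs are a family that shares 1 seed, the stretch near the 5′ end that pairs with matching sites in the 3′ untranslated region (UTR) of messenger RNAs. Paired messages are silenced and degraded by Argonaute complexes. Mature let-7 is scarce in early embryos and stem cells, where the LIN28 proteins block its maturation, and it accumulates as cells differentiate. The best-known targets, such as Lin28a, Trim71, the Igf2bp genes, Hmga2 and Mycn, act in growth and in the maintenance of an embryonic state.

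The injected mimic is shown with its seed, bases 2 to 8 from the 5′ end, in capitals. It was identical over its 22 bases to mmu-let-7f-5p of RefSeq (GRCm38.p6), which is encoded on chromosomes 13 and X.
let-7f mimic: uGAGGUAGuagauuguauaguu

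Sites that pair with this seed lie in the last exon of each of the following targets, inside the 3′ UTR (GENCODE M21, GRCm38). The 6 windows are shown because the levels of these genes carry the comparison of concentrations, and the capitals mark the 8-base site CTACCTCA.
Lin28a site 1: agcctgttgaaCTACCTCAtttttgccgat
Lin28a site 2: tcgccacaaacCTACCTCActgtgttgaaa
Trim71 site 1: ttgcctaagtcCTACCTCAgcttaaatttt
Igf2bp1 site 1: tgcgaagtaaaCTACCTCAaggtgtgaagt
Nr6a1 site 1: gacaaagacaaCTACCTCAatggaaacagg
Hmga2 site 1: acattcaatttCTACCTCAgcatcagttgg

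All 6 lie on the minus strand. The Lin28a windows are at chr4:134005178-134005207 and chr4:134004540-134004569, in exon 4 of 4. That of Trim71 is at chr9:114512461-114512490 in exon 4 of 4, the first of 4 sites in a UTR of 5512 bases. The Igf2bp1 window is at chr11:95961767-95961796 in exon 15 of 15 and the Nr6a1 window at chr2:38727438-38727467 in exon 12 of 12, each the first of 3 sites. The single Hmga2 site is at chr10:120364213-120364242 in exon 6 of 6. Searched on the transcript strand, the 8-base site occurred in the annotated 3′ UTR of 3.77% of the 13243 tested genes that had one.

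No gene passed between the concentrations. Of 15068 genes tested with limma on log2(normalized count + 1), 0 (0.0%) had a Benjamini-Hochberg adjusted p under 0.05 for 2x Str let-7f minus Str let-7f. The smallest adjusted p was 0.126, for Szrd1, and 5 genes lay under 0.5. At an unadjusted limma p under 0.05 there were 608 genes (4.04%), 316 higher and 292 lower at the doubled concentration. On the recovered reads of the same 15068 genes edgeR called 1 gene and DESeq2 called 11. DESeq2 left 1184 of the genes without an adjusted p. The median difference over all genes was 0.003 on the log2 scale, and the median absolute difference was 0.21.

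Whole profiles of pools from different concentrations were about as alike as those of pools from the same concentration. The pseudo-F between the mimic groups, computed over squared distances of log2 values, was 0.902 (exact permutation p = 0.869). Correlated across genes, which are not independent replicates, 1 pool of each concentration gave a median Pearson r of 0.885, beside 0.892 for pairs within 2x Str let-7f and 0.886 within Str let-7f. The median gene had an SD of 0.53 on the log2 scale in 2x Str let-7f and 0.58 in Str let-7f.

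The pools set a limit to what could be seen. The 95% confidence interval of the difference between concentrations extended a median of 0.68 on the log2 scale to each side, or 1.60-fold, with an interquartile range of 0.42 to 1.32. For 7937 genes (52.7%) the whole interval lay within 2-fold in both directions, and for 4029 (26.7%) within 1.5-fold. A gene of median spread would have needed a difference of 4.01-fold to pass if it were the only one to pass.

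Precision depended on the level of the gene. Among the 4336 genes with a mean normalized count under 50 the interval reached a median of 1.67 (log2) to each side, and it lay within 2-fold for 1.66% of them. Among the 6502 genes between 50 and 500 the reach was 0.66 and the share 59.2%, and among the 3986 genes between 500 and 5000 they were 0.35 and 94.7%. Of the 244 genes at 5000 or more, 98.0% had an interval within 2-fold. For abundant genes a 2-fold effect of doubling the concentration thus lay outside nearly all intervals, while for most genes of low level it was not detectable at this depth and number of pools.

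**Figure D1:**
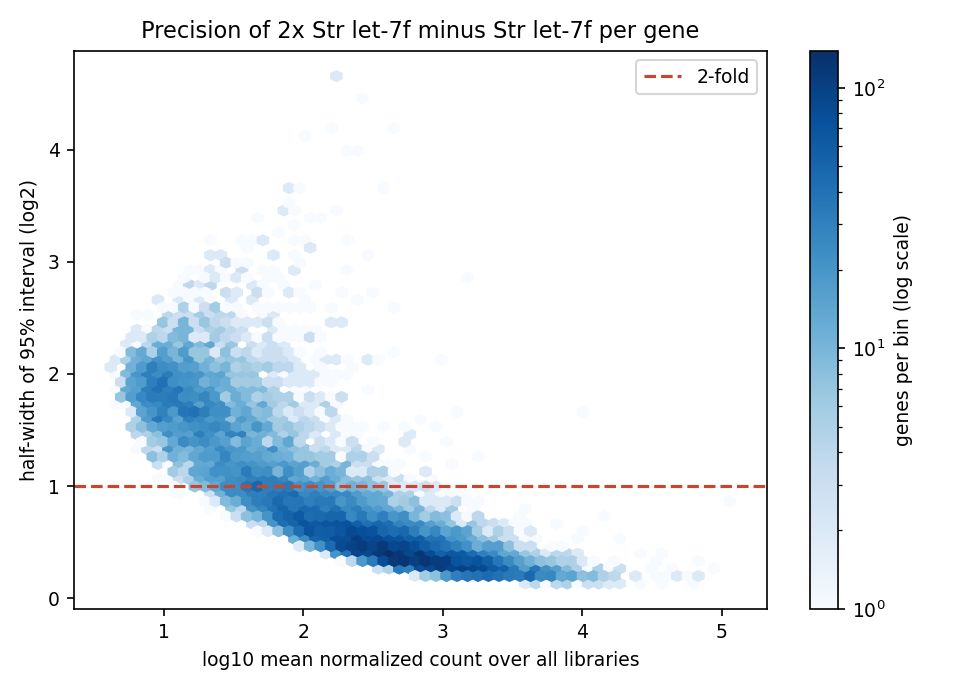
Precision of the difference between concentrations for the 15068 genes tested, with the log10 mean normalized count on the x axis, the reach of the 95% confidence interval to each side (log2) on the y axis and shading by the number of genes per bin on a log scale. The dashed line marks 2-fold, and most genes with a mean of 500 or more lie below it.

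Among the proteins that oppose let-7, Lin28a, whose product binds let-7 precursors and holds back their maturation, stood at 1252, 556, 521, 584 and 700 normalized counts in 2x Str let-7f replicates 1 to 5. In Str let-7f it ran from 412 to 850 with a median of 530, and in vehicle from 1378 to 1970 with a median of 1475. All mimic pools lay below all vehicle pools, 4 of the 5 pools at the doubled concentration lay within the range of the single one, and replicate 1 lay above it. The difference between concentrations was 0.23 ± 0.21 (log2, SE; 95% interval -0.20 to 0.66), and it was 0.01 without 2x Str let-7f replicate 1. The differences from vehicle were -1.44 in Str let-7f (limma adjusted p = 8.21e-05) and -1.21 in 2x Str let-7f (limma adjusted p = 0.00287). Its paralog Lin28b was low, from 12.9 to 27.8 normalized counts in 2x Str let-7f and 6.33 to 43.1 in Str let-7f, and its interval of -0.72 to 1.10 did not exclude a 2-fold rise.

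Trim71, a ubiquitin ligase gene with the most let-7 sites of the targets shown, stood at 1374, 1338, 771, 930 and 975 normalized counts at the doubled concentration. Str let-7f pools ran from 754 to 1486 with a median of 1040 and vehicle pools from 1664 to 2076 with a median of 1799. All 5 pools lay within the range of the single concentration and below every vehicle pool. The difference between concentrations was 0.01 ± 0.16, with a 95% interval of -0.31 to 0.33, beside differences from vehicle of -0.80 and -0.79.

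The Igf2bp genes encode RNA-binding proteins that stabilise growth-related messages. Igf2bp1 stood at 3958, 3094, 2870, 2567 and 2422 normalized counts in 2x Str let-7f, from 2274 to 3329 (median 2696) in Str let-7f and from 3553 to 4395 (median 4039) in vehicle. Replicate 1 lay among the vehicle pools and the other 4 within the range of Str let-7f, and the difference between concentrations was 0.11 ± 0.11 (95% interval -0.12 to 0.35). Igf2bp2 differed by -0.10 ± 0.13 and Igf2bp3 by 0.41 ± 0.30 (log2, SE), neither past the threshold, and all 5 values of Igf2bp2 lay within the range of the single concentration.

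Among nuclear regulators, the orphan receptor gene Nr6a1 stood at 160, 293, 157, 72.3 and 213 normalized counts at the doubled concentration, beside 90.1 to 247 (median 141) in Str let-7f and 239 to 1042 (median 374) in vehicle. The mimic groups overlapped widely, with a difference of 0.15 ± 0.37 and an interval of -0.61 to 0.92. Mycn, a MYC family transcription factor gene, stood at 1280, 703, 339, 429 and 478 beside 419 to 1443 (median 624.6) in Str let-7f, a difference of -0.28 ± 0.29. Myc differed by 0.04 ± 0.26, the DNA-binding protein gene Arid3a by 0.00 ± 0.45 and the chromatin protein gene Hmga2 by -0.08 ± 0.14. Hmga2 did not pass against vehicle at either concentration, with differences of 0.10 and 0.02.

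Arid3b, which encodes a protein that binds AT-rich DNA, had the smallest p between concentrations among the 12 targets described singly here. It stood at 152, 239, 181, 93.0 and 235 normalized counts in 2x Str let-7f, from 192 to 528 (median 274) in Str let-7f and from 322 to 468 (median 395) in vehicle. The 3 lowest pools of the doubled concentration lay below every pool of the single one. The difference was -0.74 ± 0.23 (95% interval -1.22 to -0.26), and it did not pass over all genes tested (limma adjusted p = 1.00). Its differences from vehicle were -0.44 in Str let-7f (limma adjusted p = 0.32) and -1.18 in 2x Str let-7f (limma adjusted p = 0.00923). Of the 12 targets 9 held the 8-base site in the annotated 3′ UTR searched. Arid3b, Mycn and Myc were not among them.

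**Figure D2:**
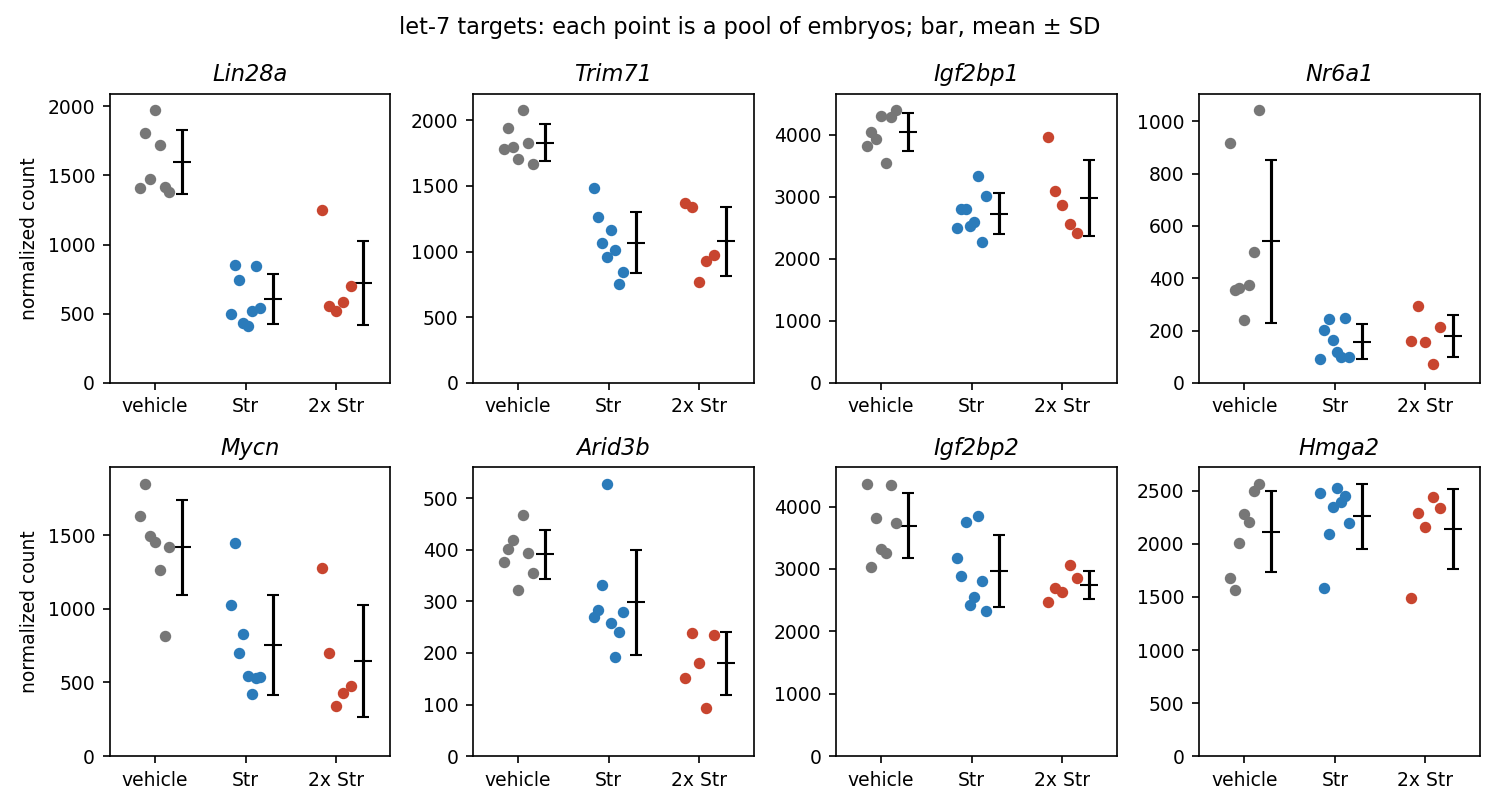
Normalized counts of 8 let-7 targets (y axis) in each pool of vehicle, Str let-7f and 2x Str let-7f blastocysts (x axis), each point 1 pool of embryos and each bar the mean ± SD of n = 7, 8 and 5 pools. The mimic groups overlap in every panel, and for Trim71 all 5 pools of the doubled concentration lie within the range of the single one.

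Over these 12 targets, 8 differences between concentrations were above 0 and 4 below, 48 of the 60 values at the doubled concentration lay within the range of Str let-7f, and the interval lay within 2-fold for 9. The wider list of let-7 targets had 65 of 69 members tested, and 0 passed (background 0.0%). Of them 39 were above 0 and 26 below, with a median of 0.07 (-0.0035 without Str let-7f replicate 9) beside 0.003 over all genes tested. The list median was -0.16 in Str let-7f against vehicle and -0.12 in 2x Str let-7f against vehicle, with 6 and 7 members called lower, where 0.796% and 0.664% of all genes were. Another member with an unadjusted p under 0.05 was Cdc25a, the phosphatase gene that activates cyclin-dependent kinases, at 1047 to 1441 normalized counts in 2x Str let-7f and 619 to 1028 in Str let-7f. Its 5 pools lay above all 8, with a difference of 0.63 ± 0.18 that did not pass (limma adjusted p = 1.00).

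The annotated 3′ UTR gave a grouping made without a list of published targets, though it holds several of them. Over the 499 tested genes with the 8-base site, the median difference between concentrations was 0.03, beside -0.0005 over the 11777 genes without a 7-base match to the seed. For the 27 genes with at least 2 sites it was 0.05. Of these sets 10, 223 and 0 genes, respectively, were lower at the doubled concentration at an unadjusted limma p under 0.05, out of 499, 11777 and 27. In the same order 11, 255 and 0 were higher. Over all 15068 genes tested 292 (1.94%) were lower and 316 higher. In all mimic pools against vehicle, 5 of the 27 genes with at least 2 sites (18.5%), 15 of the 499 (3.01%) and 163 of the 11777 (1.38%) were called lower, beside 1.3% of all genes. The 5 include Lin28a, Trim71, Igf2bp1 and Nr6a1, described above, so that share is not separate from the published targets. UTRs with sites were longer, with medians of 2636 bases for the 499 genes and 1077 bases for the 11777 genes, and the part of length was not tested.

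The genes that responded to the mimic as a whole were examined for a further change at the doubled concentration. Against vehicle, 397 genes (2.63%) passed at the single concentration, 277 higher (1.84%) and 120 lower. At the doubled one 285 (1.89%) passed, 185 higher (1.23%) and 100 lower, in a comparison that shares the vehicle pools. The counts rest on 8 and 5 mimic pools, so they do not rank the sizes of the responses. Leaving out single libraries moved the 285 to between 144 (without 2x Str let-7f replicate 5) and 331. That count also fell by over 1.5 times without 2x Str let-7f replicates 2, 3 or 4 or vehicle replicates 2 or 3. The same libraries took the 185 higher genes to between 96 and 120. The 100 lower genes came to 47 to 65 without 2x Str let-7f replicates 3, 4 or 5 or vehicle replicates 1, 2, 3 or 6. The 120 lower genes of the single concentration came to 76, 75 and 76 without vehicle replicates 1, 2 and 3. With all 13 mimic libraries weighted equally, 600 genes (3.98%) passed, 404 higher (2.68%) and 196 lower (1.3%) than vehicle. The 196 came to 127 and 130 without vehicle replicates 2 and 3. That contrast is uncorrelated with the difference between concentrations, so the 600 genes were not chosen for it.

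These 600 genes had similar median distances from vehicle at both concentrations. Their median effect, taken in the direction of the response, was 1.01 (log2) at the single and 1.04 at the doubled concentration. The median difference between concentrations in that direction was 0.008, with an interquartile range of -0.13 to 0.20. At the doubled concentration 310 genes (51.7%) lay further from vehicle, beside 49.5% of all genes tested, 24 (4.0%) had an unadjusted p under 0.05 and 0 passed. For 536 of them (89.3%) the upper end of the 95% interval was below the gene's own mean response, which is itself estimated high in genes chosen by a threshold.

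The same held pool by pool. Measured in the direction of the response from the mean of Str let-7f, the median over the 600 genes was -0.13, -0.03, 0.06, 0.18 and 0.05 in 2x Str let-7f replicates 1 to 5. In Str let-7f it ran from -0.24 to 0.17 (median 0.05), and in vehicle from -1.19 to -0.81 (median -0.98). Of the 5 pools of the doubled concentration 4 lay inside the range of the single one and replicate 4 just above it, and all lay above every vehicle pool. The highest pool of each mimic group, 2x Str let-7f replicate 4 and Str let-7f replicate 9, was the shallowest library of its group, and the part of depth was not tested.

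For the 196 genes that fell with the mimic the median was 0.05 in the direction of the response, and 114 (58.2%) lay further from vehicle at the doubled concentration. Of them 11 were further and 3 nearer at an unadjusted limma p under 0.05, together 7.14% beside 4.04% of all genes, and 0 passed. The 404 genes that rose gave a median of -0.005, with 196 further from vehicle and 2.48% at an unadjusted limma p under 0.05. No test was made over either set, and the 2x Str let-7f pools ranged from -0.19 to 0.31 over the 196 genes and the Str let-7f pools from -0.25 to 0.30.

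**Figure D3:**
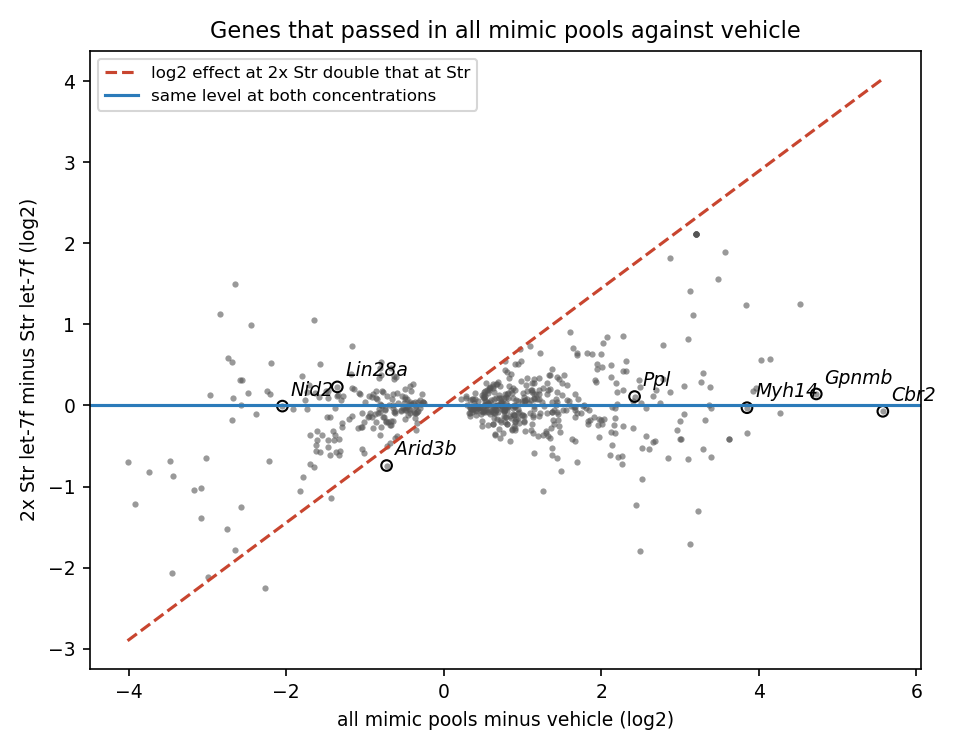
Each point is 1 of the 600 genes that passed in all mimic pools against vehicle, with that difference on the x axis (log2) and the difference between 2x Str let-7f and Str let-7f on the y axis (log2). The solid line marks the same level at both concentrations and the dashed line a log2 effect at 2x Str let-7f that is double the one at Str let-7f, and the points gather along the solid line with a median of 0.008 in the direction of the response.

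Among the 16 genes with the smallest p in either direction against vehicle, 64 of 80 values at the doubled concentration lay within the range of Str let-7f. Ppl, which encodes the cytoskeletal linker periplakin, stood at 1672, 1637, 1405, 1487 and 1601 normalized counts in 2x Str let-7f, beside 1143 to 1798 (median 1544) in Str let-7f and 184 to 390 (median 266) in vehicle. The mimic groups overlapped and lay apart from vehicle, with a difference between concentrations of 0.11 ± 0.17 (95% interval -0.24 to 0.46). Gpnmb, a transmembrane glycoprotein gene, stood at 892, 515, 443, 780 and 756 beside 321 to 1000 in Str let-7f and 9.25 to 84.4 in vehicle, a difference between concentrations of 0.14 ± 0.39. The basement membrane gene Nid2 stood at 400, 368, 251, 274 and 291 beside 216 to 493.3 in Str let-7f and 961 to 1749 in vehicle, a difference of -0.01 ± 0.20. Both genes thus had all 5 values within the range of the single concentration.

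Me1, the cytosolic malic enzyme gene, and Ckb, a creatine kinase gene, differed between concentrations by -0.28 ± 0.13 and -0.16 ± 0.10 (log2, SE), and neither passed. Rcn1, which encodes a calcium-binding protein of the secretory pathway, was the only one of the 16 with an unadjusted p under 0.05 between concentrations. It stood at 118, 92.7, 108, 67.1 and 81.1 normalized counts in 2x Str let-7f, beside 82.8 to 276 (median 136) in Str let-7f and 287 to 506 (median 322) in vehicle. The difference was -0.58 ± 0.25 (95% interval -1.09 to -0.06), with 3 of 5 pools inside the range of the single concentration.

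A further test asked, gene by gene, whether the log2 effect at the doubled concentration departed from double the effect at the single one. It passed for 11 genes (0.073%), 2 with a departure above 0 (0.0133%) and 9 below (0.0597%), and lay at an unadjusted p under 0.05 for 1232 (8.18%). In each the effect at 2x Str let-7f was smaller than double. The Str let-7f mean enters with a weight of 2, so genes with extreme Str let-7f values pass more readily. That direction was thus partly set by the selection. A doubled log2 effect is a squared fold change, which a doubled concentration need not give. All 11 were also called in Str let-7f against vehicle, which shares its pools with this contrast. They were Ppl, Gpnmb, Myh14, Me1, Ckb, Cbr2, Dmkn, Vnn1 and Cbl, which were raised at the single concentration, and Nid2 and Sirt7, which were lowered. For Ppl the departure was -2.27 ± 0.27 (log2, SE; limma adjusted p = 0.000281), for Me1 -1.75 ± 0.22 (limma adjusted p = 0.000281) and for Nid2 2.04 ± 0.32 (limma adjusted p = 0.00373).

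Of the 11 genes 9 passed against vehicle at both concentrations. The others, Cbl and Sirt7, were near vehicle at the doubled concentration, with differences from vehicle of -0.11 and 0.23. Leaving out single libraries ended the calls of Sirt7 and Vnn1 in 13 of 20 cases each (highest limma adjusted p = 0.131 and 0.104) and those of Cbr2 and Cbl in 3 each (0.0651 and 0.0642). The count of 11 was 5 in the libraries of at least 5 M reads, 19 without Str let-7f replicate 2, 3 with the replicate number as a block, 21 with array weights and 128 with DESeq2.

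The genes with the smallest p between concentrations are given as values that did not pass. Szrd1, which encodes a protein with a SUZ RNA-binding domain, stood at 1132, 865, 990, 1611 and 516 normalized counts in 2x Str let-7f, from 369 to 595 (median 431) in Str let-7f and from 417 to 691 (median 554) in vehicle. Replicates 1 to 4 lay above every other pool, and replicate 5 lay among them. The difference was 1.11 ± 0.20 (95% interval 0.71 to 1.52; limma adjusted p = 0.126). It passed by edgeR (adjusted p = 0.0398), by DESeq2 (adjusted p = 2.98e-05) and, with limma, without 2x Str let-7f replicate 5 (adjusted p = 0.00136).

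Podn, which encodes the matrix proteoglycan podocan, stood at 48.0, 126, 15.9, 98.1 and 19.1 normalized counts beside 0 to 11.8 in Str let-7f and 5.35 to 49.9 in vehicle. All 5 pools lay above all 8 pools of the single concentration, on 189 and 66 reads in all, and both mimic groups overlapped with vehicle. Sirt7, which encodes a nucleolar deacylase, stood at 484, 201, 182, 258 and 241 beside 66.0 to 170 (median 85.1) in Str let-7f and 150 to 438 (median 219) in vehicle. Its 5 pools lay above all 8 of the single concentration and within or above the range of vehicle. The differences between concentrations were 3.30 ± 0.72 for Podn and 1.41 ± 0.31 for Sirt7, each with limma adjusted p = 0.432. The kinase gene Map4k5 differed by 0.94 ± 0.21, with 4 of 5 pools above all Str let-7f pools, and Aifm1, Rnaseh2a, Ppil3 and Kmt5b differed by 0.51 to 1.22.

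On the lower side, Acbd4, an acyl-CoA-binding protein gene, stood at 52.0, 79.8, 60.7, 56.8 and 76.9 normalized counts beside 80.3 to 353 (median 209) in Str let-7f and 91.0 to 225 (median 157) in vehicle. All 5 pools lay below every other pool, by a narrow margin for replicate 2. The difference was -1.60 ± 0.31 (limma adjusted p = 0.272), past the threshold by DESeq2 (adjusted p = 0.000327) and, with limma, without Str let-7f replicate 3 (adjusted p = 0.0335). Cbl, a ubiquitin ligase gene that acts on receptor tyrosine kinases, stood at 1300, 3130, 1844, 1250 and 1845 beside 2768 to 4788 (median 3200) in Str let-7f and 1470 to 2882 (median 1813) in vehicle. Replicate 2 alone lay within the range of the single concentration. The difference was -0.96 ± 0.20 (limma adjusted p = 0.404), and without 2x Str let-7f replicate 2 it passed (-1.16, adjusted p = 0.0366). Fadd, the adaptor gene of death receptors, differed by -1.18 ± 0.32, and its 5 values (20.7 to 124) lay below all 8 (139 to 222). Klhl24, Arel1, Pou2f2, Rfxap and Col20a1 differed by -0.99 to -2.18.

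**Figure D4:**
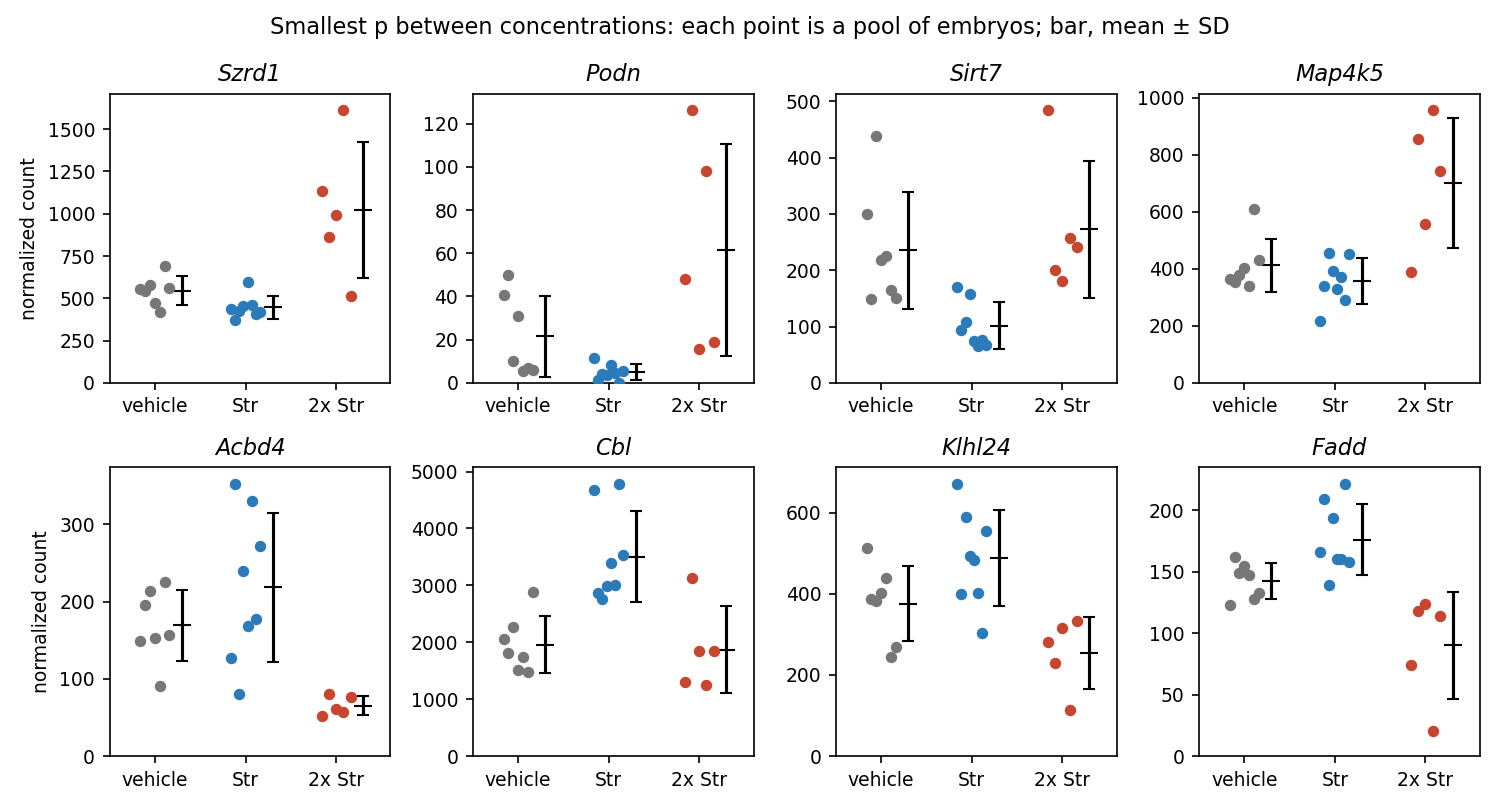
Normalized counts (y axis) of the 4 genes of smallest p in each direction between concentrations, in each pool of vehicle, Str let-7f and 2x Str let-7f blastocysts (x axis), each point 1 pool and each bar the mean ± SD of n = 7, 8 and 5. The genes were taken for their p and none passed with limma; Podn, Sirt7, Acbd4 and Fadd have no overlap between the mimic groups.

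In all, 12 of the 15068 genes (0.0796%) had mimic groups that did not overlap, 8 higher (0.0531%) and 4 lower (0.0265%) at the doubled concentration. They were Podn, Sirt7, Rnaseh2a, Cdc25a, Pfdn6, Spats1, Gm19046 and Vmn1r184, and Acbd4, Fadd, Bin1 and Ube2k. The 11 genes called by DESeq2 were Szrd1, Acbd4, Podn, Map4k5, Sirt7, Cbl, Pou2f2, Egfr, Apob, Dpf1 and the pseudogene Rps27a-ps3. Those outside the smallest p values were named after their values were seen. Rps27a-ps3 had 0 reads in 2x Str let-7f and 1134 reads in 4 of 8 Str let-7f libraries. A processed copy of a ribosomal gene shares sequence with its parent, so its reads are uncertain. Egfr, the receptor of epidermal growth factor, had 1246 reads in 2x Str let-7f and 357 reads in Str let-7f. Of these reads, not scaled for depth, 49.0% came from 1 library.

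Lineage lists of the blastocyst, and lists of processes that other comparisons of these pools had pointed to, were described in the same way. In none of them did a member pass between concentrations with limma, beside the background of 0.0%, and Apob was the member among the 11 calls of DESeq2. On leaving out single libraries 14 of the 22 list medians between concentrations changed sign, all of them medians within 0.18 of 0. Primitive endoderm genes, which mark the inner layer that forms yolk sac endoderm, had a median of -0.05 over 33 tested members, with 12 above 0 and 21 below. The list stood at -0.90 in Str let-7f against vehicle and -0.81 in 2x Str let-7f against vehicle, with 14 and 12 members called lower (background 0.796% and 0.664%). Cubn, an endocytic receptor gene of this lineage, stood at 1074, 993, 1347, 1178 and 782 normalized counts at the doubled concentration beside 834 to 1634 (median 1163) at the single one and 1763 to 3868 (median 2671) in vehicle. Of its 5 pools 4 lay within the range of Str let-7f and all lay below vehicle, with a difference of -0.17 ± 0.18. The member with the smallest p was Apob, which encodes a lipoprotein, at 46.0, 5.15, 8.14, 341 and 32.6 beside 0 to 7.47 in Str let-7f. Its highest value came from 2x Str let-7f replicate 4, the shallowest of the group, and the difference of 3.43 ± 1.08 did not pass with limma, while it passed by DESeq2 (adjusted p = 0.0152).

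Epiblast and pluripotency genes (32 tested) had a median of -0.06 between concentrations, with 11 above 0 and 21 below. Trophectoderm genes (35 tested) had a median of 0.004, with 18 above 0 and 17 below. Median normalized counts at the doubled and the single concentration were 4484 and 4515 for Cdx2, 1102 and 1082 for Nanog and 2768 and 2889 for Gata6. They lay further apart for Pou5f1 (3016 and 3370), Sox2 (241 and 277), Krt18 (31989 and 37203) and Pdgfra (1901 and 1571). None of these markers passed between concentrations. Transcripts of the 2-cell stage (22 tested) had a median difference from vehicle of 2.02 at the single and 1.86 at the doubled concentration, and of 0.04 between concentrations. Of the 22, 1 was called higher than vehicle at each concentration (background 1.84% and 1.23%). Their summed level was 238 to 319 reads per 1 M reads in 2x Str let-7f (median 266), 198 to 524 in Str let-7f (median 302) and 210 to 238 in vehicle (median 233). Their intervals reached a median of 2.07 to each side, and that list held 2 members with an interval within 2-fold. A member with no reads in vehicle could pass the filter on low values through mimic pools alone, so the list's differences from vehicle are partly set by that filter.

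Stress lists gave medians near 0 between concentrations. The value was -0.001 for p53 targets (34 tested), -0.01 for heat shock and oxidative stress (41), -0.02 for the integrated stress and unfolded protein response (40) and 0.07 for apoptosis (31), which stood at -0.075 without 2x Str let-7f replicate 2. Interferon and RNA-sensing genes, which respond to foreign RNA, had a median of -0.15 over 25 tested members, with 15 below 0. At an unadjusted limma p under 0.05, 3 of the 25 were lower, beside 292 of all 15068 genes (1.94%), and the members were not tested as a set. Irf7, a transcription factor gene of that response, stood at 26, 41.2, 12.2, 0 and 24.1 normalized counts at the doubled concentration and 12.1 to 533 (median 52.8) at the single one. Its difference of -2.45 ± 0.98 did not pass, and the groups overlapped. The RNA sensors Rigi (0.07 ± 0.74) and Eif2ak2 (0.22 ± 0.41) did not pass, with all 5 values within the range of Str let-7f, nor did Oas1a (0.85 ± 0.87).

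The remaining lists, apart from those of other cells and of Y-linked genes given below, lay between -0.04 and 0.03. The median was 0.006 for microRNA processing and silencing genes (35 tested), 0.03 for cell junction genes (36), 0.03 for DNA methylation and chromatin modifiers (54), -0.02 for insulin, IGF and mTOR signalling (39), -0.04 for DNA replication (50), 0.03 for imprinted genes (30) and -0.04 for oocyte genes (13). Within them the smallest unadjusted p values were those of the desmosome-associated Pkp4 (0.71 ± 0.23) and the histone methyltransferase gene Kmt2d (0.69 ± 0.23), which did not pass.

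**Figure D5:**
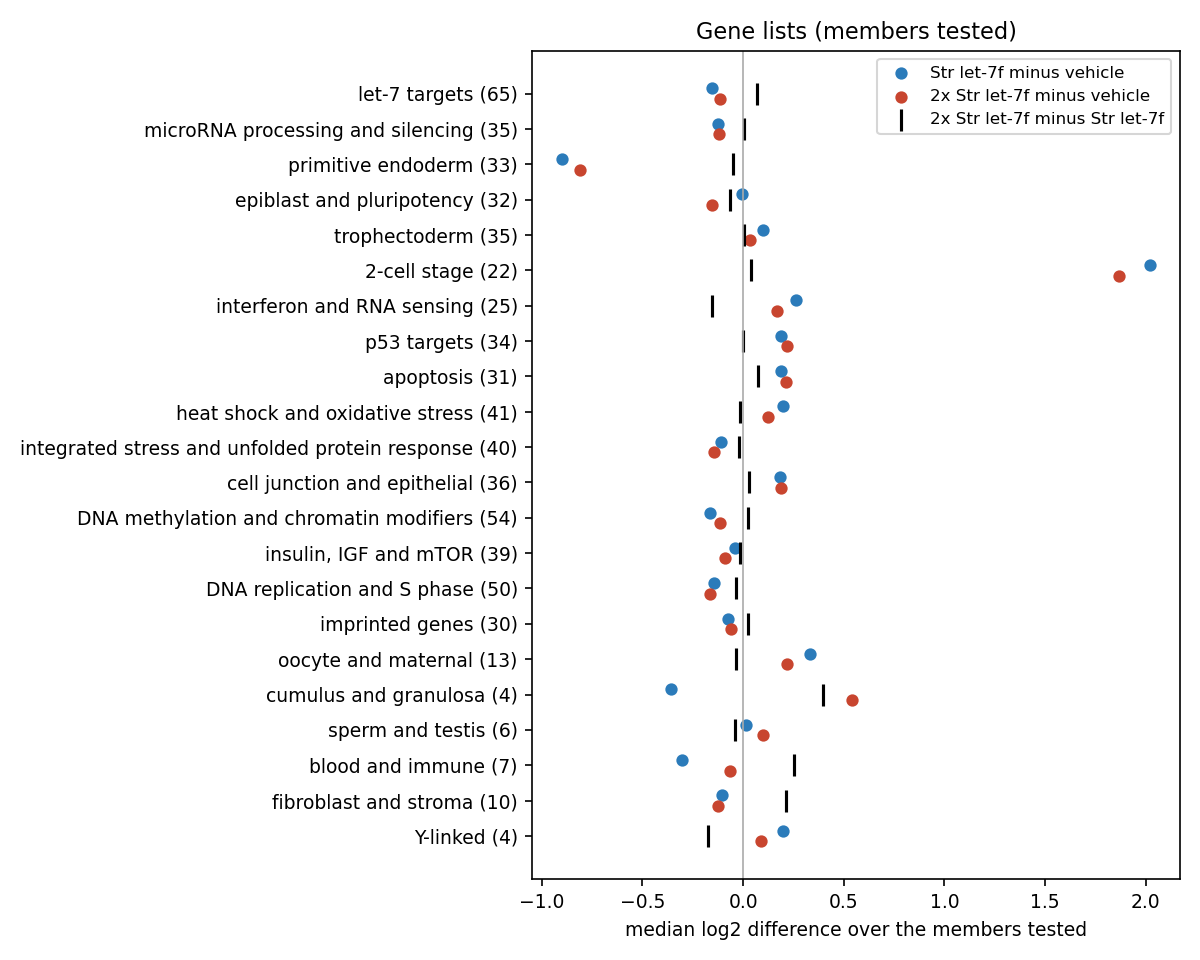
Median log2 difference over the tested members (number in brackets) of 22 gene lists, for Str let-7f minus vehicle, 2x Str let-7f minus vehicle and 2x Str let-7f minus Str let-7f. Both differences from vehicle share the vehicle pools. Among lists of more than 10 tested members the median difference between concentrations farthest from 0 is -0.15, for interferon and RNA-sensing genes. Smaller lists lie farther from 0, at 0.40 for cumulus and granulosa, 0.25 for blood and immune, 0.21 for fibroblast and stroma and -0.18 for Y-linked genes.

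Markers of other cells that a pool could hold were summed in each library. Of 20 cumulus and granulosa genes 7 were in the table, with a sum of 18.2 to 32.3 reads per 1 M reads in 2x Str let-7f and 12.5 to 36.8 in Str let-7f, and all 4 that were tested were above 0 (median 0.40). Of 22 sperm and testis genes 7 were in the table, with sums of 193 to 288 and 190 to 362, of which Odf2, also a centrosome gene, made up 85.5%. Of 20 blood and immune genes 8 were in the table, with sums of 830 to 1178 and 754 to 1071, of which the actin-bundling gene Lcp1 made up 95.6%. Of 20 fibroblast and stroma genes 11 were in the table, with sums of 498 to 708 and 482 to 896, of which the fibronectin gene Fn1 made up 90.01%. The differences between concentrations had medians of -0.04 for sperm and testis genes (6 tested), 0.25 for blood and immune genes (7) and 0.21 for fibroblast and stroma genes (10). None passed with limma, and their part in other differences was not tested. For 4 Y-linked genes, whose level follows how many embryos of a pool were male, the mean log2 value was 7.96 ± 0.60 (SD, n = 5) and 8.13 ± 0.28 (n = 8), a difference of -0.17 (exact permutation p = 0.552). In 2x Str let-7f replicate 1 it was 6.93, below all other mimic pools.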

How the data were processed

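The deposited file gives a normalized signal per gene and library. It was made with kallisto 0.50.1 and DESeq2 1.48.2 among other tools (FastQC 0.12.1, Trimmomatic 0.39 and MultiQC 1.28) on the build GRCm39, per the submitters' processing notes. The annotation and the summing to genes are not given in the sources used here. In the file as deposited, 100% of values were whole multiples of the worth of 1 read within 0.01, so whole reads and depths were recovered. An entry without a gene name, 0.0286% to 0.0618% of reads, was left out. kallisto divides reads among near-identical copies, so single members of multigene families are uncertain. A floor of 3 reads equals 0.0510 to 1.94 reads per 1 M reads, for counting error only.

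Of 16014 named genes, 15068 with at least 10 in at least 5 of the 20 libraries were tested on log2(value + 1). A fold change on that scale understates the change of low genes. A model with 1 mean for each group and a trended prior was fitted to all 20 libraries by limma 3.58.1 in R 4.3.3 (17 residual degrees of freedom), two-sided, with Benjamini-Hochberg adjustment over all genes and a threshold of 0.05. The whole profile and library measures were compared by exact permutation over all splits. Limits of detection are 95% intervals from the same fit.

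The members of the comparison and the gene lists were chosen with earlier results of these data known. Named genes were the 8 of smallest p in each direction between concentrations and in all mimic against vehicle (without predicted models, clone names and pseudogenes), 12 let-7 targets, the 2 of smallest p in each list, and Ifit1, Isg15, Rigi, Eif2ak2, Oas1a, Ddx3y and Eif2s3y. Ifit1 did not pass the filter, and Isg15 is not analysed here. Genes with groups that do not overlap, departing genes and DESeq2 calls were named after their values were seen. Sites came from GENCODE M21 on GRCm38, where 1001 genes found no match and 94 found one through an older symbol, and microRNAs from RefSeq GRCm38.p6, while the files use GRCm39.

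Alternatives were pseudocounts of 0.5 and 5, no filter and a filter of 50, TMM scaling, array weights, mimic libraries alone, Y-linked level or depth as a covariate, deeper libraries, the replicate block, each library left out, and the count tests of DESeq2 1.42.0 and edgeR 4.0.16 run on the whole reads. The fit was tested on simulated data.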

Additional observations from a re-analysis of the deposited data

Results flagged for a closer look

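In 14 of 174 groups checked, 1 library stood apart from the others of its group by Dixon's criterion, and chance flags about 1 in 20 groups. At the doubled concentration these were Rnaseh2a in replicate 2 (425 normalized counts, others 238 to 257), Kmt5b in replicate 4 (1555, others 945 to 1053), Trim6 in replicate 4 (423, others 695 to 842), Ckap4 in replicate 1 (984, others 460 to 572) and Hmga2 in replicate 1 (1494, others 2157 to 2438). Replicate 1 also had the lowest Y-linked level of the group, and replicate 4 the fewest reads.

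In Str let-7f they were Szrd1 in replicate 6 (595, others 369 to 461), Eppk1 in replicate 2 (275, others 517 to 841), Ckap4 in replicate 1 (1061, others 564 to 739), Hmga2 in replicate 2 (1587, others 2091 to 2524) and Bin1 in replicate 5 (580.0, others 139 to 209). In vehicle they were Map4k5 in replicate 7 (610.0, others 340 to 431), Lin28b in replicate 6 (16.1, others 33.9 to 53.8), Ube2k in replicate 8 (296, others 515 to 664) and the share of reads on Lars2 in replicate 5 (5.39%, others 0.637% to 1.94%).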

How the results depend on the processing

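The count of genes passing between concentrations was 0 with limma under every alternative except on leaving out 2x Str let-7f replicate 2 (1, Cbl), 2x Str let-7f replicate 5 (1, Szrd1) or Str let-7f replicate 3 (1, Acbd4), a range of 0 to 1. It was 1 with edgeR and 11 with DESeq2. Over 34 settings, named genes gave 3209 values between concentrations. Of these 12 passed, 2 moved by more than the SD between pools and 3195 did neither. Direction could still change among the 3195, as for Trim71 (-0.090 to 0.118 on leaving out single libraries). Of 714 list medians 711 moved by less than the spread of pools. Array weights gave 1044 genes for all mimic against vehicle, 617 for Str let-7f, 647 for 2x Str let-7f and 21 departing from a doubled effect. DESeq2 gave 1037, 767, 621 and 128. Libraries of at least 5 M reads, which hold 3 pools at the doubled concentration, gave 302, 199, 65 and 5. Leaving out both mimic libraries under 2 M reads, chosen after seeing the data, gave 184 for the doubled concentration against vehicle and -0.000215 for the let-7 target median. Leaving out single libraries gave 144 to 331 for 2x Str let-7f against vehicle, with the low values without vehicle replicates 2 and 3 (168 and 176) or 2x Str let-7f replicates 2 to 5 (188, 151, 157 and 144). It gave 8 to 19 departing genes, the 19 without Str let-7f replicate 2, and -0.0035 to 0.093 for the let-7 target median, the lowest without Str let-7f replicate 9. The median over genes with a site was -0.0052 with edgeR. Causes were not tested. Equal replicate numbers did not pair the mimic libraries (r of deviations -0.007 to 0.092 over 4 pairs). At the doubled concentration 0 of 5 libraries correlated best with their own number. For replicate 4 this was fixed, since Str let-7f has no library of that number. With the replicate block 0 genes passed between concentrations and 3 departed from a doubled effect. Depth and pool number limit the comparison most below a mean of 50 normalized counts. Between 50 and 500 the interval lay within 2-fold for 59.2% of genes.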
